A study of Mus musculus with 6 samples.

Results

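The genes described here are 10 repressors that write, read or support methylation of histone H3 at lysine 9 (H3K9) or act beside it in heterochromatin: Ehmt1, Ehmt2, Setdb1, Suv39h1, Suv39h2, Trim28, Cbx1, Cbx5, Wiz and Kdm1a. They were listed by name for their known roles, which include silencing of germline genes and of genes of the 2-cell embryo. Of the 10, 9 had a probe set of their own among 19938 genes measured. Expression of Suv39h1, which encodes an H3K9 methyltransferase of pericentric heterochromatin, was not analysed here. Each of the 9 was read by 1 probe set, a group of probes for the same transcript.

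Expression was profiled in the V6.5 line of mouse embryonic stem cells with 1 GeneChip Mouse Gene 1.0 ST array per sample. The Pcgf6 hairpins shRNA1 and shRNA2 with doxycycline (dox, 1 µg/ml) formed the induced group (n = 2), and both without dox formed the uninduced group (n = 2). The Scrambled control hairpin gave 1 induced and 1 uninduced sample. All cells grew on inactivated mouse embryo fibroblasts, so every sample can hold feeder RNA, and the labels do not say whether a line is a clone or whether arrays came from separate cultures. In bulk RNA of this kind, fewer cells of a type and less RNA per cell cannot be told apart.

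Methylation of H3K9 is a mark of silent chromatin. GLP and G9a, the products of Ehmt1 and Ehmt2, place the lower methylation states within gene-rich chromatin, whereas SETDB1 and the SUV39H enzymes place the trimethyl state at retroviral elements and pericentric repeats. HP1 proteins bind the methylated tail, and KDM1A (LSD1) removes methyl groups from lysine 4 of the same histone. Pcgf6 encodes a RING finger protein of the polycomb complex PRC1.6, which also silences germline genes, and in human cells GLP and G9a were purified together with E2F6, a DNA-binding subunit of that complex.

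The labels were checked on Pcgf6, whose level is given as log2 expression, as are all levels below. It measured 9.39 with dox and 11.56 without under shRNA1, and 9.27 with dox and 11.70 without under shRNA2. The Scrambled arrays measured 11.82 with dox and 11.80 without. Pcgf6 fell by 2.30 over both hairpins (SE 0.10, limma adjusted p = 0.000846). The stem cell factor gene Pou5f1 lay between 12.55 and 12.64 on the 6 arrays. That was the narrowest range of the 12 stem cell markers, and the widest was 0.59. Over both hairpins the 12 differences ran from -0.45 for Dppa4 (limma adjusted p = 0.188) to 0.23 for Klf4, and 0 passed. Dppa4 was also lower with dox in the Scrambled pair, by 0.33. The 12 stem cell markers averaged 11.64 with dox and 11.67 without under shRNA1, 11.56 and 11.71 under shRNA2, and 11.68 and 11.82 under Scrambled. The 19 measured feeder fibroblast markers averaged 10.35 with dox and 10.34 without under shRNA1, 10.65 and 10.20 under shRNA2, and 10.05 and 9.51 under Scrambled. The feeder signal was thus higher with dox in the shRNA2 and Scrambled pairs.

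Promoters were examined first, because PRC1.6 reaches DNA through MGA with MAX, which bind the E-box CACGTG, and through E2F6, whose sites share the core GCGGGA. Windows from RefSeq (GRCm38.p6) ran from 250 bases before to 50 bases after each annotated start, and both strands were searched. No E-box overlapped an E2F core in the windows printed below. The E-box was present for 2 of the 10 repressor genes, Cbx5 and Ehmt2, against 12 of 22 silenced germline genes with a window and 8.09% of all 27025 genes with one. The E2F core was present for 8 of the 10 repressors, against 9 of those 22 germline genes and 22.1% of all genes. Among the 10, Setdb1 and Suv39h1 held neither. Of 9 silenced 2-cell genes with a window, 0 held the E-box and 0 the E2F core, with a median GC content of 45.7%. The median GC content was 62.7% over the 16 windows of the repressors and 52.7% over all 32851 windows, and the motif counts were not adjusted for it. The germline genes were chosen with their response known, so these counts are descriptions.

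The windows of 4 genes are printed to set both E-box-holding repressors beside a pair of germline genes that rose in these cells, Mael and Slc25a31. Capitals mark the E-box and the E2F core on either strand; on the opposite strand the E2F core reads TCCCGC. The windows are chr15:103239803-103240102 (minus strand) for Cbx5, chr17:34898224-34898523 (plus strand) for Ehmt2, chr1:166238695-166238994 (minus strand) for Mael and chr3:40708621-40708920 (plus strand) for Slc25a31.
Cbx5: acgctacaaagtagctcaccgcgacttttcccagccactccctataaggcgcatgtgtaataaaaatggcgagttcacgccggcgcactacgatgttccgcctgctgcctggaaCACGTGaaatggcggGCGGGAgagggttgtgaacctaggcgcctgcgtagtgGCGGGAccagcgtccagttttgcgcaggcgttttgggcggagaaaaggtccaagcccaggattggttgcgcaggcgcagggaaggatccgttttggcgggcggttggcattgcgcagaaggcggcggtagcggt
Ehmt2: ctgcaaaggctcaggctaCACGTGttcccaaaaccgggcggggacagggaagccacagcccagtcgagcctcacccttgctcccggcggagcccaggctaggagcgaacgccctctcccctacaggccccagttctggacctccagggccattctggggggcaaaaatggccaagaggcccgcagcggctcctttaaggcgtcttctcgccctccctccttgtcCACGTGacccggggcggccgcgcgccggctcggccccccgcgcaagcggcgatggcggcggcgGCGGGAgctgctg
Mael: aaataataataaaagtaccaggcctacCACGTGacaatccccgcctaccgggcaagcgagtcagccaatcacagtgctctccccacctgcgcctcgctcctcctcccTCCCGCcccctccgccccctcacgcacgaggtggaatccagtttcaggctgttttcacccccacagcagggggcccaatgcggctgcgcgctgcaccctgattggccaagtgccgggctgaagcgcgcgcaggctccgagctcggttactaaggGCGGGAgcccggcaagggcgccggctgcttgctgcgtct
Slc25a31: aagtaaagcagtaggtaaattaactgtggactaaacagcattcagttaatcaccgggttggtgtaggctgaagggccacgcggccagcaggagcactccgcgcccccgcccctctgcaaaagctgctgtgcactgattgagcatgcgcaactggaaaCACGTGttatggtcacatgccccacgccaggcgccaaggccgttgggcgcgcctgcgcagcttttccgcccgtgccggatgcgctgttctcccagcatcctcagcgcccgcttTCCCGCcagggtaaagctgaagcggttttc
The window of Cbx5 held 1 E-box and 2 E2F cores, and that of Ehmt2 held 2 E-boxes and 1 E2F core. Mael held 1 E-box and 2 E2F cores, and Slc25a31 held 1 of each. These windows were picked because they hold the E-box. RefSeq lists a further window for both repressors, with 0 E-boxes and 0 E2F cores for Cbx5 and with 1 E-box and 0 E2F cores for Ehmt2. A match is a description of the letters and not a measured binding site.

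Repressor transcripts were first compared with and without dox in cells carrying a Pcgf6 hairpin. By limma, 0 of the 9 measured repressors passed an adjusted p of 0.05 over all genes, where 0.201% of all 19938 genes did (40 genes). With so low a share, 0 of 9 does not set the repressors apart. Cbx5, 1 of the 9, had an unadjusted p under 0.05, as did 1745 of all genes. The repressor differences between induced and uninduced hairpin cells ran from -0.26 to 0.04 on the log2 scale. Their median was -0.05, against -0.01 over all genes. The median size of the difference, sign aside, was 0.052 for the repressors and 0.086 over all genes. It was 0.102 over the 60 measured genes of the related lists described below. These sets were not matched for expression level. The 95% intervals of the 9 genes together spanned -0.50 to 0.33. A fall of over 1.41-fold or a rise of over 1.25-fold thus lay outside every one of these intervals, each of which covers a single gene. A p that misses the threshold does not show that a level was the same.

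**Figure D1:**
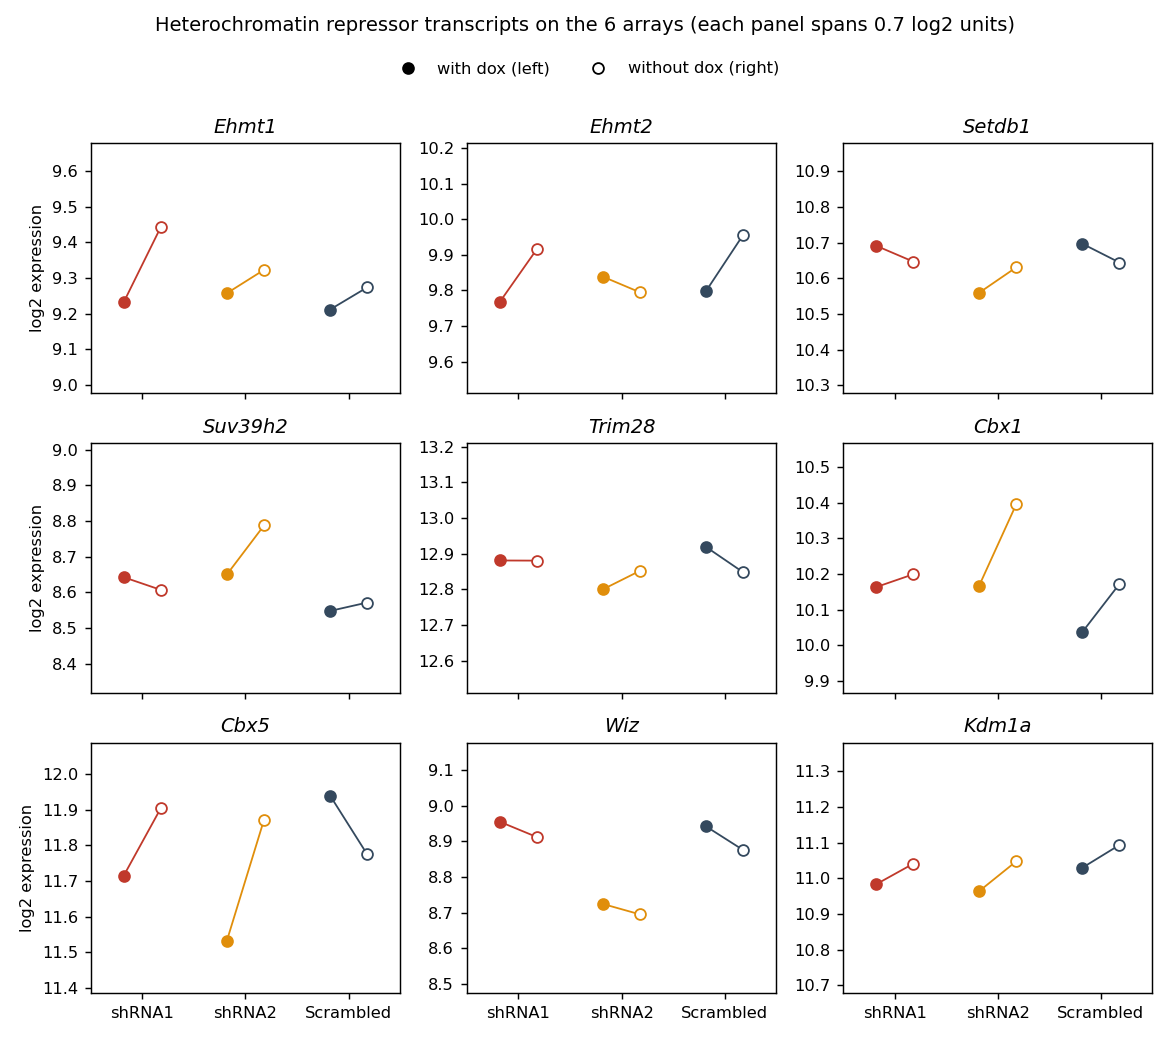
Log2 expression of the 9 measured repressor genes on the 6 arrays, 1 panel per gene, with filled points for dox and open points for no dox joined within each hairpin line. All panels have an axis of the same length but a different start, and Cbx5 has the widest spread, 0.41, while Trim28 has the narrowest, 0.12.

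Of the GLP and G9a group, Ehmt1 measured 9.23 with dox and 9.44 without under shRNA1, 9.26 and 9.32 under shRNA2, and 9.21 and 9.27 under Scrambled. All 3 arrays with dox lay below all 3 without, and the widest gap was under shRNA1. The difference over both hairpins was -0.14 (SE 0.09, limma adjusted p = 0.706), and the change of the Scrambled pair was -0.06. Ehmt2 measured 9.77 with dox and 9.92 without under shRNA1, 9.84 and 9.79 under shRNA2, and 9.80 and 9.96 under Scrambled. The hairpin groups overlapped, since shRNA1 and Scrambled were lower with dox and shRNA2 was not. Its difference over both hairpins was -0.05 (SE 0.09, adjusted p = 0.915). Its promoter windows, 1 of them printed above, held 2 E-boxes and 1 E-box.

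Wiz encodes a zinc finger protein that binds the GLP and G9a dimer. It measured 8.95 with dox and 8.91 without under shRNA1, 8.72 and 8.69 under shRNA2, and 8.94 and 8.88 under Scrambled. Both shRNA2 arrays were below the other 4, and among those 4 both arrays with dox were above both without. With dox it was higher in all 3 pairs, by 0.04, 0.03 and 0.07, and the difference over both hairpins was 0.04 (SE 0.12, adjusted p = 0.96). It was the 1 repressor of the 9 that was higher in every pair, where 15.2% of all genes were.

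Setdb1, which encodes the enzyme that trimethylates H3K9 at retroviral elements in stem cells, measured 10.69 with dox and 10.65 without under shRNA1, 10.56 and 10.63 under shRNA2, and 10.70 and 10.64 under Scrambled. The groups overlapped, and the difference over both hairpins was -0.01 (SE 0.09, adjusted p = 0.982). Trim28, the co-repressor (KAP1) that joins SETDB1 to KRAB zinc finger proteins, measured 12.88 with and 12.88 without dox under shRNA1, 12.80 and 12.85 under shRNA2, and 12.92 and 12.85 under Scrambled. Over the 6 arrays it varied by 0.12, the smallest range of the 9 genes, and its difference over both hairpins was -0.03 (SE 0.09, adjusted p = 0.96). Suv39h2, the other pericentric methyltransferase gene, measured 8.64 with dox and 8.61 without under shRNA1, 8.65 and 8.79 under shRNA2, and 8.55 and 8.57 under Scrambled. It was higher in uninduced shRNA2 cells than on the 5 other arrays, and its difference over both hairpins was -0.05 (SE 0.10, adjusted p = 0.924).

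Cbx5, which encodes the H3K9 methylation reader HP1 alpha, had the largest difference of the 9. It measured 11.72 with dox and 11.90 without under shRNA1, 11.53 and 11.87 under shRNA2, and 11.94 and 11.78 under Scrambled. The induced hairpin arrays were the lowest of all 6, and the induced Scrambled array was the highest. Induced hairpin cells averaged 11.62 ± 0.13 and uninduced ones 11.89 ± 0.02 (SD, n = 2 each). The difference was -0.26 (SE 0.10, 95% interval -0.50 to -0.03), a 1.20-fold lower level, with an unadjusted p of 0.032 and a limma adjusted p of 0.538, so it did not pass over all genes. In the pair of shRNA2, where Cbx5 was lower by 0.34, the feeder average was 0.45 higher with dox. In the shRNA1 pair, where the feeder averages were 10.35 with and 10.34 without dox, Cbx5 was lower by 0.19. In the Scrambled pair, where the feeder average was 0.54 higher with dox, Cbx5 was higher by 0.16. With the feeder average as a covariate its difference was -0.16 (SE 0.15, adjusted p = 1.00). The slope of that covariate rests only on the gaps between the shRNA1 and shRNA2 arrays within each hairpin group. It therefore cannot separate feeder level from other differences between those arrays.

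Cbx1, which encodes the related reader HP1 beta, measured 10.16 with dox and 10.20 without under shRNA1, 10.17 and 10.40 under shRNA2, and 10.04 and 10.17 under Scrambled. It was lower with dox in each pair, including the one without a Pcgf6 hairpin. The difference over both hairpins was -0.13 (SE 0.10, adjusted p = 0.754). Kdm1a, the histone demethylase gene whose loss raises 2-cell genes in stem cells, measured 10.98 with dox and 11.04 without under shRNA1, 10.96 and 11.05 under shRNA2, and 11.03 and 11.09 under Scrambled. The changes within pairs were -0.06, -0.08 and -0.06, nearly the same in the 3 lines. Over both hairpins the difference of Kdm1a was -0.07 (SE 0.08, adjusted p = 0.853).

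Both induced hairpin arrays lay below both uninduced ones for 4 of the 9 repressors, Ehmt1, Cbx1, Cbx5 and Kdm1a, where 21.8% of all genes did so. None of the 9 had both induced arrays above both uninduced ones, against 17.9% of all genes. Ehmt1, Cbx1 and Kdm1a were lower with dox in all 3 pairs, where 18.5% of all genes were, so Cbx5 was the 1 gene of the 4 that was higher with dox in the Scrambled pair. No repressor reached a 1.5-fold change in any pair: 0 of 9 did under shRNA1 (0.868% of all genes), 0 of 9 under shRNA2 (2.61%) and 0 of 9 under Scrambled (1.7%). Each such change is 1 array against 1, with no replicate.

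The next comparison asked whether the repressors responded to dox differently with a Pcgf6 hairpin than with the Scrambled hairpin. The difference of responses passed for 0 of the 9 repressors by limma, where 0.0702% of all genes passed (14 genes), and 1 of the 9 had an unadjusted p under 0.05, as did 908 of all 19938 genes. That gene was again Cbx5, with -0.43 (SE 0.17, 95% interval -0.83 to -0.03, unadjusted p = 0.0405, adjusted p = 0.999). Without induced shRNA1, induced shRNA2 or either uninduced hairpin array, the value of Cbx5 ranged from -0.52 to -0.34. Of the 8 other genes, Ehmt2 had the highest value, 0.11 (SE 0.16), and Trim28 the lowest, -0.10 (SE 0.15). Cbx1, the paralogue of Cbx5, had 0.00 (SE 0.17, 95% interval -0.41 to 0.41). The intervals here are wider than in the first comparison, since the Scrambled response is subtracted and each Scrambled state has 1 array. Together the intervals spanned -0.83 to 0.48.

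**Figure D2:**
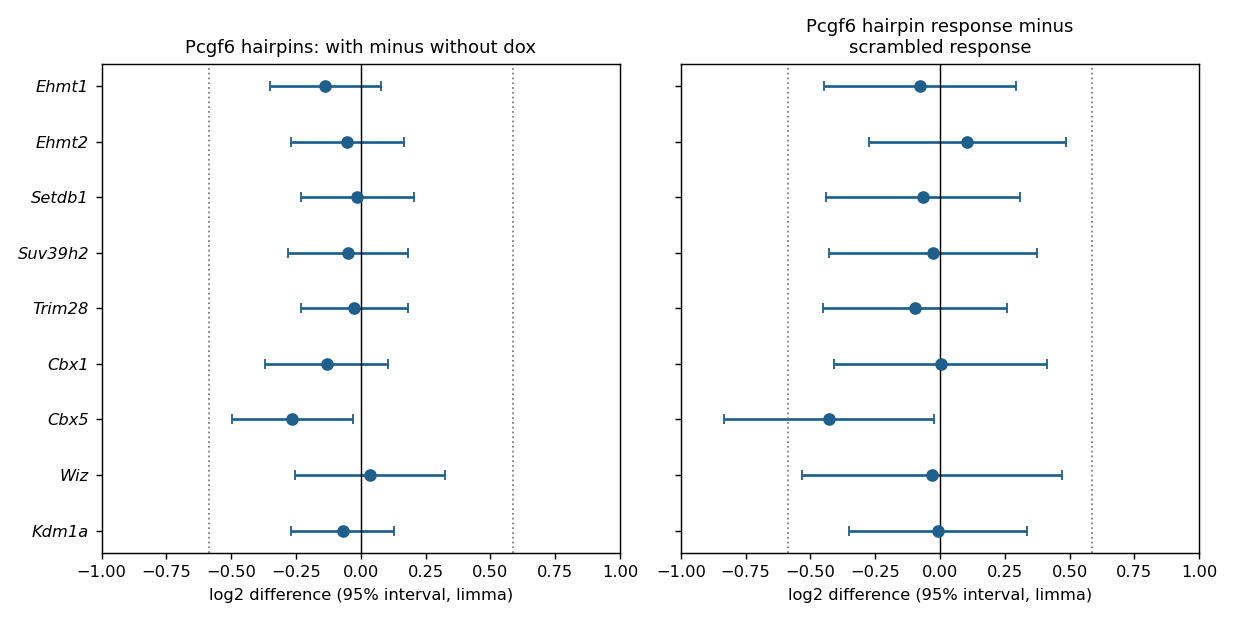
Log2 differences of the 9 repressors with 95% intervals from limma, for Pcgf6 hairpins with minus without dox (left panel) and for that response minus the Scrambled response (right panel), with dotted lines at 1.5-fold. The interval of Cbx5 lies below 0 in both panels, at -0.50 to -0.03 and -0.83 to -0.03, and those of the 8 other genes span 0.

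Levels before induction were compared between the Pcgf6 hairpin lines and the Scrambled line. None of the 9 repressors passed, and 0 had an unadjusted p under 0.05, where 0% of all genes passed by limma and 1607 genes had an unadjusted p under 0.05. The differences ran from -0.10 for Ehmt2 (SE 0.11) to 0.13 for Suv39h2 (SE 0.12, adjusted p = 0.859, n = 2 against 1). Cbx1, Cbx5 and Ehmt1 were at 0.13, 0.11 and 0.11, with standard errors of 0.12, 0.12 and 0.11. All 9 intervals lay between -0.43 and 0.42. The feeder averages of the uninduced arrays were 10.34 and 10.20 in the hairpin lines and 9.51 in Scrambled, and their part in these differences was not tested.

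The partners of these repressors were examined in 6 further lists, which held 60 measured genes of 64. None of the 60 passed in the first comparison, and 11 had an unadjusted p under 0.05, where 1745 of all 19938 genes did. The median difference over the 60 genes was -0.05. In the comparison with Scrambled 0 passed, with 1 unadjusted p under 0.05, and before induction 0 passed, with 2.

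The list of SETDB1, TRIM28 and HUSH partners had 12 genes measured of 13, a median of -0.11 over both hairpins and 0 called, and held the gene with the lowest value of the 60. All 12 were lower with dox under shRNA2, 8 of 12 under shRNA1 and 6 of 12 under Scrambled. Of all 19938 genes, 10802, 9882 and 10656 were lower in these pairs. Of the 12 stem cell markers, 11 were lower under shRNA2, 6 under shRNA1 and 10 under Scrambled. The feeder average was higher with dox in the shRNA2 and Scrambled pairs. Smarcad1, a chromatin remodeller that acts with TRIM28, measured 10.34 with dox and 10.60 without under shRNA1, 10.19 and 10.83 under shRNA2, and 10.58 and 10.67 under Scrambled. Its difference over both hairpins was -0.45 (SE 0.11, limma adjusted p = 0.382). Tasor, the scaffold of the HUSH complex, measured 9.88 with dox and 10.18 without under shRNA1, 9.84 and 10.21 under shRNA2, and 9.87 and 9.94 under Scrambled. For both genes the induced hairpin arrays were below the uninduced ones, and for Tasor (difference -0.33, SE 0.08, adjusted p = 0.384) both Scrambled arrays lay nearer the induced hairpin arrays than the uninduced ones. Atf7ip, which stabilises SETDB1, was at -0.25 (SE 0.09, adjusted p = 0.527), and Pphln1, another HUSH subunit, at -0.23 (SE 0.09, adjusted p = 0.571). In this list both induced arrays lay below both uninduced ones for 7 of 12 genes and above for 0, against 21.8% and 17.9% of all genes. For the 12 stem cell markers these counts were 5 and 1. The part of feeder RNA in the counts of this list was not tested.

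Among partners of GLP and G9a, 0 of 4 passed, with a median of -0.13. Cdyl2, a chromodomain protein gene, was at 0.31 (SE 0.08, adjusted p = 0.429), and Zfp462, Zfp644 and Cdyl at -0.18, -0.14 and -0.12. The LSD1 and NuRD list had 0 of 18 called and a median of -0.02. In it Phf21a, a reader of unmethylated lysine 4 in the LSD1 complex, was at -0.33 (SE 0.11) and Gse1 at -0.27 (SE 0.10). The deacetylase gene Hdac2 was at 0.29 (SE 0.09) and the second LSD1 gene, Kdm1b, at 0.23 (SE 0.08), with adjusted p between 0.49 and 0.538 for these 4 genes.

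The H3K9 demethylases, which oppose the enzymes above, had 0 of 10 called, with Kdm4c at -0.20 (SE 0.10), Kdm3a at -0.19 (SE 0.09), Phf2 at 0.19 (SE 0.13) and Kdm7a at 0.13 (SE 0.10). Phf2 and Kdm7a were near 0 under shRNA1 (0.01 and 0.00) and higher under shRNA2 (0.38 and 0.27) and Scrambled (0.40 and 0.35), the pairs in which the feeder average was also higher. The part of feeder RNA in these values was not tested. Of the HP1 and chromocentre list 0 of 12 passed, with Mbd1, a binder of methylated CpG, at 0.34 (SE 0.10), and Uhrf1, which guides maintenance methylation, at -0.26 (SE 0.09). The remodeller gene Hells was at -0.24 (SE 0.11) and the chromatin assembly factor gene Chaf1b at -0.21 (SE 0.09). Of 4 further H3K9 methyltransferase genes 0 passed, and Prdm2, Setdb2, Prdm16 and Mecom were at 0.25, -0.09, -0.09 and 0.07.

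**Figure D3:**
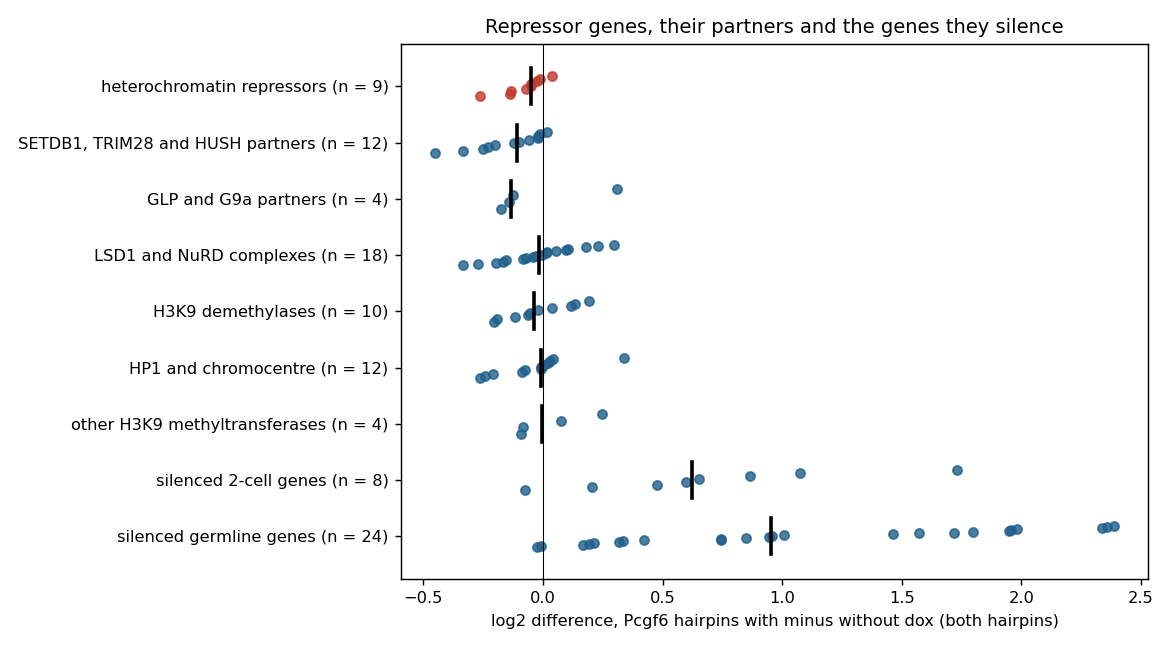
Log2 differences between Pcgf6 hairpins with and without dox for each measured gene (points) and the median of each list (black bars), for the repressors, 6 lists of partners or related enzymes and 2 lists of silenced genes. The repressors lie between -0.26 and 0.04 with a median of -0.05, whereas the germline list has a median of 0.95.

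Germline and 2-cell genes, classes with members that these repressors are known to silence, were set beside them on the same arrays. Whether each listed gene is a target of these repressors was not tested. The word silenced names these classes and is not a statement about their levels in these cells. Of 24 germline genes, 12 rose and 0 fell by limma, and of 8 measured 2-cell genes 3 rose and 0 fell. Of all genes 0.201% passed, 38 of them higher and 2 lower. The 2-cell list held 13 genes, and Zscan4c, Zscan4d, Tcstv1, Tdpoz4 and Duxf3 had no probe set of their own. Against the Scrambled response 9 germline and 2 measured 2-cell genes passed, all higher, where 0.0702% of all genes passed. Both lists were chosen with earlier results of these arrays known, so their direction is no independent evidence. Mael, which acts in piRNA silencing and whose promoter is printed above, measured 10.77 with dox and 8.80 without under shRNA1, 10.78 and 8.79 under shRNA2, and 8.08 and 8.74 under Scrambled. Both induced hairpin arrays lay far above the other 4. Its difference of 1.98 (SE 0.08, adjusted p = 0.000846) stands against differences of -0.26 to 0.04 for the repressors. Zfp352, a 2-cell gene, measured 6.57 with dox and 5.60 without under shRNA1, 6.56 and 5.80 under shRNA2, and 5.32 and 5.44 under Scrambled. It rose by 0.87 (SE 0.10, limma adjusted p = 0.0438). Its difference from the Scrambled response, 0.98, did not pass (limma adjusted p = 0.358). The other called germline genes were Slc25a31, Rhox13, Tex11, Syce1, Mov10l1, Tdrkh, Ddx4, Taf7l, Piwil2, Dazl and Sycp2, with rises between 0.85 and 2.39, and the other called 2-cell genes were Tdpoz3 (1.73) and Usp17la (1.07).

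**Figure D4:**
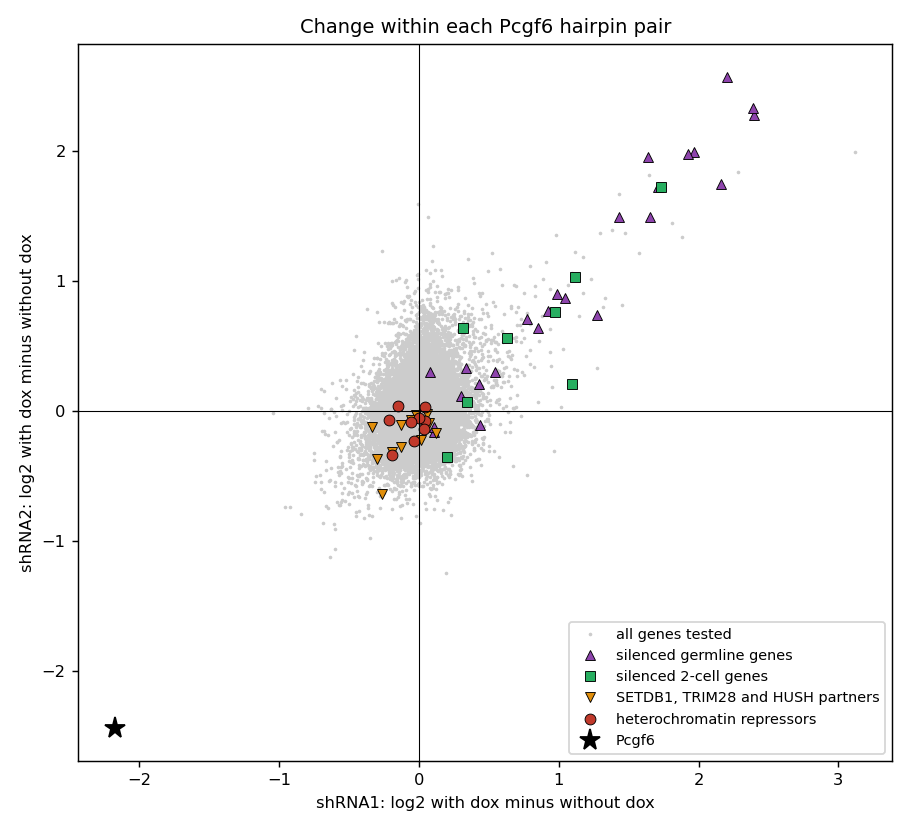
Change with dox (log2 with minus without) in the shRNA1 pair (horizontal axis) and the shRNA2 pair (vertical axis) for all 19938 genes (grey), the repressors, SETDB1, TRIM28 and HUSH partners, silenced germline and 2-cell genes, and Pcgf6. The repressors lie between -0.21 and 0.04 under shRNA1 and between -0.34 and 0.04 under shRNA2, while Pcgf6 is at -2.17 and -2.44.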

How the data were processed

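The deposited values are log2 expression per probe set. Per the submitters' processing notes, the authors used RMA in Affymetrix Power Tools, which sets all arrays to a common distribution and so takes out shifts common to most genes; versions and options are not given in the sources used here. Array medians ran from 7.02 to 7.08, and the number of arrays limits the precision.

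Of 35556 probe sets, 21789 had 1 gene symbol, 1621 several and 12146 none. Symbols were updated by Entrez identifier through RefSeq (GRCm38.p6), which held 21698 of the 21789. The probe set with the highest mean stood for each of 19938 genes, with no filter on level.

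A linear model in limma 3.58.1 (R 4.3.3) gave each of 4 groups (induced and uninduced Pcgf6 hairpins, induced and uninduced scrambled) its own mean across the 6 arrays. The residual degrees of freedom were 2 and the prior ones 4.44. Tests were two-sided with Benjamini-Hochberg adjustment over all genes and a threshold of 0.05. The single scrambled arrays were taken to vary like the hairpin groups. The p-values reflect the spread among these arrays alone, and that spread may be technical. SE is the moderated standard error, and 95% intervals are not adjusted for the number of genes. The model was tested on simulated data.

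Members, lists, motifs and tests were chosen with earlier results of these data known. All members were named. Every called gene of a partner or silenced gene list was named, or otherwise its 4 largest differences over both hairpins. Cell type marker lists were given as averages or medians instead. Of their genes, only Dppa4, Klf4 and Pou5f1, a known stem cell factor, were named. Of 6 primitive endoderm and 6 trophectoderm markers, 0 passed in any comparison, and their median changes in the shRNA1, shRNA2 and Scrambled pairs were 0.02, 0.01 and 0.24 for endoderm and 0.16, 0.41 and 0.11 for trophectoderm.

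Arrays of the same hairpin are paired because they come from the same line, and their deviations from the group means correlated at 0.181 across genes. Alternatives were 2 other scalings, a variance trend, filters on dim genes, the mean of a gene's probe sets, a feeder covariate, the hairpin as a block, and leaving out each array.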

Additional observations from a re-analysis of the deposited data

Results flagged for a closer look

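Cbx5 was singled out because both Pcgf6 hairpin pairs were lower with dox, by 0.19 and 0.34 on the log2 scale, while the Scrambled pair was higher by 0.16. The response of the Pcgf6 hairpins minus that of Scrambled was -0.43, and it did not pass over all genes (limma adjusted p = 0.999, n = 2 pairs against 1). Of all 19938 genes, 4666 showed both hairpin pairs on one side of 0 and the Scrambled pair on the other. No group held enough arrays to be examined for outlying samples.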

How the results depend on the processing

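In each of the 3 comparisons 0 of the measured repressors passed under every alternative that could be run, and the smallest adjusted p of a repressor was 0.394 for dox in Pcgf6 hairpin cells, 0.691 for the difference from Scrambled and 0.609 before induction. All 81 recomputed changes within pairs moved by less than 1 residual SD. Those from the mean of a gene's probe sets could not move, since each repressor had 1 probe set. Median centring shifts all genes of an array alike, so this count is a weak check. With the hairpin as a replicate block 0 repressors passed, 54 genes were called for dox and 23 for the difference from Scrambled; before induction the block could not be fitted.

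Over all genes, the count for dox was 62 with an intensity trend, 7 without the dimmest 50% of genes and 21 with the feeder covariate, and 14 to 40 with 1 array left out (24 without induced shRNA1, 26 without induced shRNA2, 14 without either uninduced hairpin array). The count for the difference from Scrambled was 22 with median centring, 9 and 4 without the dimmest 25% and 50%, 5 with the feeder covariate, and 0 to 4 with 1 hairpin array left out (4 and 3 without induced shRNA1 and shRNA2, 0 without either uninduced array). Leaving out a Scrambled array was not possible there. The cause of these shifts was not tested.

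Several uncalled differences changed sign. For dox, Wiz was at -0.00457 with quantile normalization, and Setdb1 and Trim28 at 0.0669 and 0.0182 with the feeder covariate. With 1 array left out, Wiz ranged from -0.0792 to 0.151, Ehmt2 from -0.113 to 0.00868, Setdb1 from -0.0795 to 0.0527, Trim28 from -0.0663 to 0.0146 and Suv39h2 from -0.142 to 0.0394. For the difference from Scrambled, Cbx1 was at -0.00154 and Kdm1a at 0.0136 with quantile normalization, and Cbx1 at -0.0662 with the feeder covariate. With 1 array left out, Cbx1 ranged from -0.0957 to 0.101, Wiz from -0.146 to 0.0851, Kdm1a from -0.0164 to 0.00273 and Suv39h2 from -0.118 to 0.0629. Before induction, Trim28 was at -0.0169 with median centring, and Ehmt1, Setdb1, Wiz and Pcgf6 were at -0.0535, 0.258, 0.216 and 0.221 with the feeder covariate. With 1 array left out, Setdb1 ranged from -0.0136 to 0.00267 and Wiz from -0.18 to 0.0366. The Setdb1 and Wiz values with the feeder covariate lay outside the main range of the repressors before induction, -0.10 to 0.13. The slope of that covariate came from hairpin arrays alone, with feeder averages of 10.20 to 10.65. Uninduced Scrambled, at 9.51, lay outside that range, so the values with the covariate before induction are extrapolations.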
